A study of Microtus ochrogaster with 40 samples.

Results

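Cartpt, Nts, Cck and Adcyap1 are 4 neuropeptide genes of the nucleus accumbens, and their messenger RNA was followed here through the nuclei of 40 prairie voles (Microtus ochrogaster). The 4 genes were chosen by name among the 19130 genes listed in each library, and all 4 were found, under the identifiers ENSMOCG00000010231 (Cartpt), ENSMOCG00000000690 (Nts), ENSMOCG00000014234 (Cck) and ENSMOCG00000003306 (Adcyap1). Each library held the nuclei of the dissected accumbens of 1 animal, frozen before dissection and read by droplet single-nucleus RNA sequencing. The animals had been housed for 16 days with a partner new to them, which was either of the opposite sex (mate) or of the same sex (peer). Of the females, 11 had a mate and 8 a peer, and of the males 11 had a mate and 10 a peer. The groups are called female mate, female peer and so on below. The labels name no allele, drug or age for these animals, hold no group without a partner, and do not say which animals had lived together.

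Neuropeptides are cut from larger precursors, stored in dense-core vesicles and released onto receptors that mostly couple to G proteins. Cartpt encodes the precursor of the cocaine- and amphetamine-regulated transcript peptides, first known from striatal RNA that psychostimulants raise. Nts encodes neurotensin, whose receptors Ntsr1 and Ntsr2 interact with dopamine signalling. Cck encodes cholecystokinin, an abundant peptide of cortical pyramidal cells and of a class of cortical interneurons, read by the receptors Cckar and Cckbr. Adcyap1 encodes PACAP, which raises cyclic AMP through the receptor Adcyap1r1 and, with lower selectivity, through Vipr1 and Vipr2. The accumbens is built mostly of GABA-releasing medium spiny neurons that carry the dopamine receptor Drd1 (with Pdyn and Tac1) or Drd2 (with Penk and Adora2a), with interneurons and glia among them.

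After filtering, 178387 of 194518 barcodes were kept, between 1767 and 7666 per animal, with 2913854 to 13055003 unique molecular identifiers (UMIs, 1 per captured RNA molecule) per animal. The classes below were named from marker genes after clustering without the 4 peptide genes, and the ending -like marks that the names rest on markers. D2 and D1 medium spiny neuron-like nuclei numbered 31612 and 30887, with 14769 of an eccentric spiny class. Glutamate neuron-like nuclei numbered 29390, astrocyte-like 20494 and mature oligodendrocyte-like 12281, and 16841 nuclei (9.44%) stayed unnamed. The spiny classes, of which the accumbens is mostly built, made up 20.7% to 60.3% of an animal's nuclei. Such shares do not by themselves check the label of the tissue. Glutamate neuron-like nuclei, which carry Slc17a7 and are rare in the accumbens proper, ranged from 0.531% (male peer 5) to 41.5% (male mate 2) with a median of 16.5%. These 2 animals stood apart from the others in this share. Male mate 2 also stood apart in depth, with a median of 654 UMIs in its kept nuclei. Of its 12519 barcodes, 6375 were under 500 UMIs, where no other library held any. The lowest barcode had 206 UMIs in male mate 2 and 500 or 501 in the other libraries. An unlike cut-off on barcodes and lower depth thus cannot be told apart in this count. Of its 2414 glutamate neuron-like nuclei, 2075 came from 1 first-round cluster (3618 nuclei) of which this library made up 61.4%. Any 2 libraries shared at most 74 barcode sequences.

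Levels are given as CPM, the share of a gene among the UMIs of the same nuclei scaled to 1e6, summed per animal. They are shown per class over animals with at least 20 nuclei of it. Of Cartpt, 28541 UMIs were counted in 17151 nuclei (9.61% of all nuclei). Nts gave 17408 UMIs in 7231 nuclei (4.05%), Cck 97827 UMIs in 27706 nuclei (15.5%) and Adcyap1 3584 UMIs in 2542 nuclei (1.42%). Every animal had UMIs of all 4 genes. The plot of levels by class shows 2 arrangements: Cartpt and Nts were highest in spiny neuron-like nuclei, and Cck and Adcyap1 in glutamate neuron-like or interneuron-like nuclei. The order covers named classes and, for Nts, depends on the second round of clustering. With the first round alone a cholinergic interneuron-like cluster of 2485 nuclei came before D2 nuclei for Nts (192 against 174 CPM over 33 animals), and the pair was not told apart (mean within-animal log2 difference -0.29, higher in 15 of 33 animals, adjusted p = 0.368, permutation test). The second round split that cluster mostly into 547 cholinergic interneuron-like nuclei (sub-cluster 118) with 764 CPM of Chat and 2 Nts UMIs, and unnamed GABA sub-clusters described below. Sub-cluster 123 (116 nuclei), which the markers also named cholinergic, had 49 Nts UMIs, with 5.10 CPM of Chat and 1269 CPM of Gad1.

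**Figure D1:**
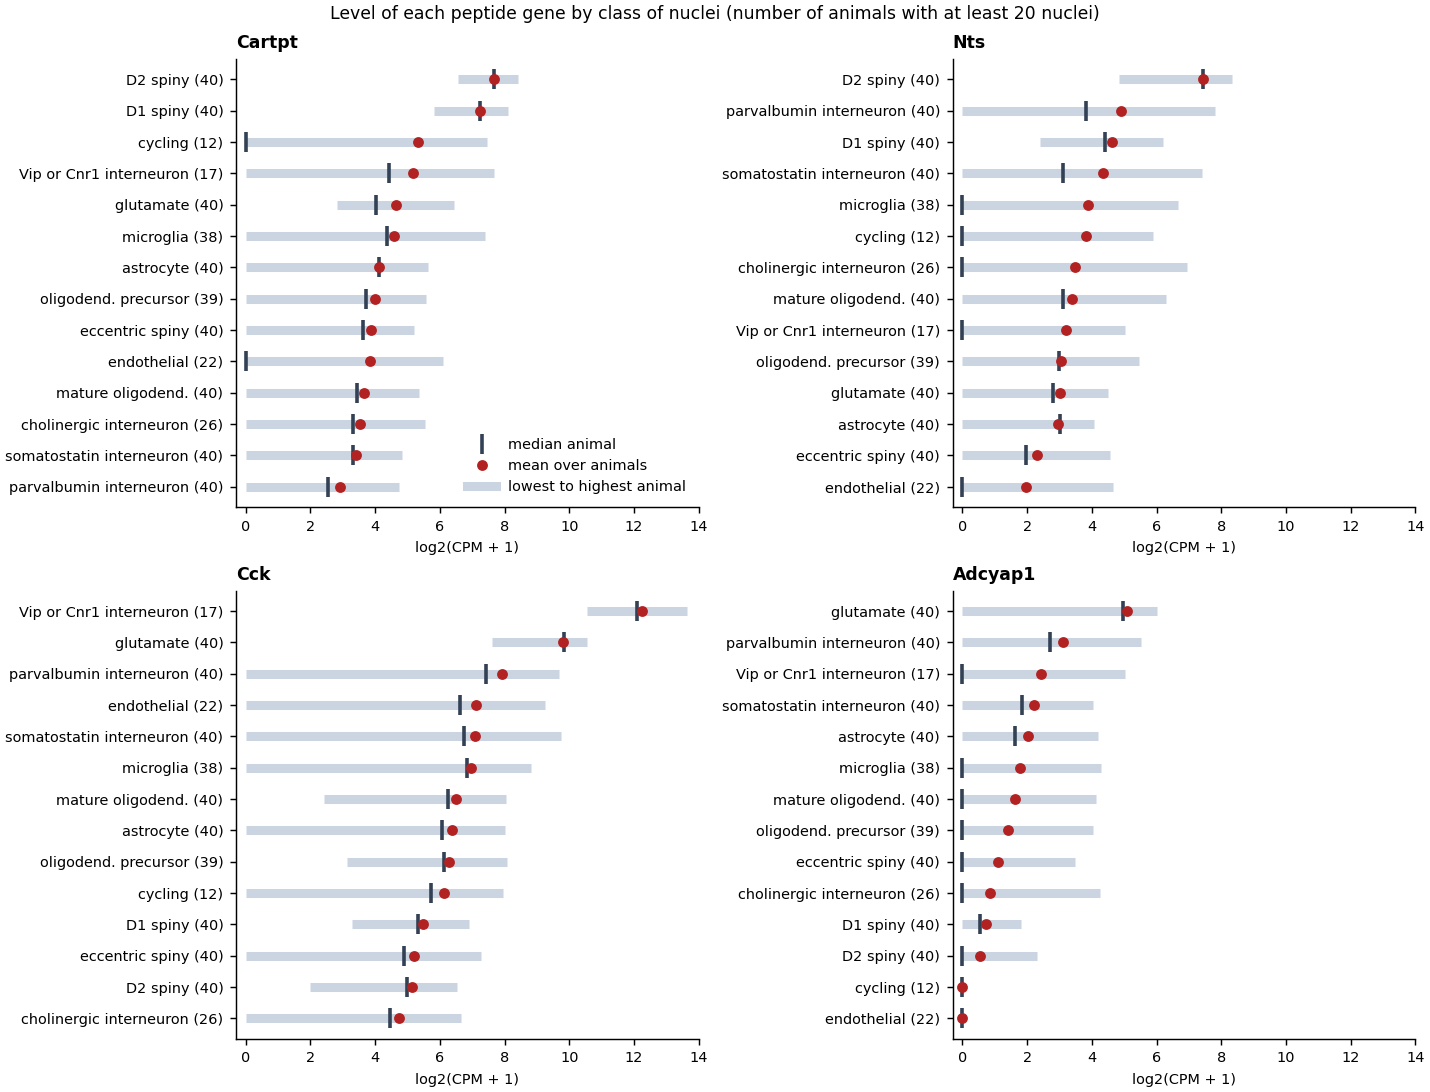
Level of Cartpt, Nts, Cck and Adcyap1 in each named class with at least 6 animals, on a log2(CPM + 1) axis. The grey bar runs from the lowest to the highest animal, the tick is the median animal, the point is the mean CPM over animals placed on that axis, and the number of animals is in parentheses. Cartpt and Nts lead in D2 nuclei (202 and 173 CPM), Cck in Vip or Cnr1 interneuron-like nuclei (4863 CPM) and Adcyap1 in glutamate neuron-like nuclei (32.7 CPM).

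Cartpt was a gene of both spiny pathways. In D2 nuclei its level was 202 ± 62.9 CPM (SD, n = 40 animals), with 92.6 CPM in the lowest animal, 202 in the median and 337 in the highest. In D1 nuclei it was 152 ± 54.8 CPM, from 55.9 to 276 CPM. D2 nuclei held 45.9% and D1 nuclei 38.0% of all Cartpt UMIs. The ranges overlapped, but within animals D2 exceeded D1 in 35 of 40, by 0.44 on the log2 scale (two-sided sign-flip permutation test of log2(CPM + 1), adjusted p = 0.00013 over all 52 neighbouring pairs of classes of the 4 genes). The third place among the named classes was taken by cycling-like nuclei (39.1 CPM), whose median animal was at 0 over 12 animals, and D1 nuclei exceeded them (adjusted p = 0.022, exact sign-flip permutation test, 10 of 12 animals). Eccentric spiny neuron-like nuclei, the remaining spiny class, had 13.8 CPM. They came from a first-round cluster led by Foxp2 and Otof and another led by Col14a1 and Shisa8. Unnamed nuclei together had 55.8 CPM, and 1 unnamed first-round cluster of 4107 nuclei, with Drd3, Isl1 and Pdyn among its leading genes and 24.9% of its nuclei from 1 animal, had 146 ± 83.1 CPM of Cartpt (n = 40), beside the 152 CPM of D1 nuclei.

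The split within the D2 class was wider than that between D1 and D2. The D2 class was made of 6 sub-clusters led by Adora2a and Penk (26545 nuclei) and 5 sub-clusters of a cluster led by Cpne7 (5067 nuclei, the Cpne7 sub-clusters below). One of these 5, sub-cluster 84 (377 nuclei, led by Grpr), had 16.6 CPM of Cpne7, where the other 4 had at least 142 CPM, and its pooled Cartpt of 87.9 CPM was the highest of the 5. Cartpt was at 240 ± 78.1 CPM in the former and 14.7 ± 16.1 CPM in the latter, higher in 40 of 40 animals (log2 difference 4.71, permutation p = 1e-05, the smallest that 100000 resamples can give). That comparison, like all comparisons of sub-clusters below, was chosen after the clusters had been seen. The peptides took no part in the clustering, although genes that vary with them did, so these tests speak to how repeatable a difference was over animals.

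Among the sub-clusters, Cartpt peaked in D2 sub-cluster 8 (4828 nuclei, led by Nts, Penk and Adora2a), at 356 ± 125 CPM over 38 animals. D2 sub-cluster 10 had 263 ± 87.0 CPM and sub-cluster 6, marked by Npffr2 and Col24a1, 235 ± 80.5 CPM. Sub-cluster 8 exceeded sub-cluster 10 in 30 of 34 animals (log2 difference 0.50, adjusted p = 8.87e-05 over 71 pairs of sub-clusters, permutation test), while 10 and 6 were not told apart (log2 difference 0.04, adjusted p = 0.865). On the D1 side the highest was sub-cluster 5 (1917 nuclei), led by Dlk1, Pdyn, Peg10 and Wfs1, with 305 ± 124 CPM over 36 animals. It exceeded the next, sub-cluster 1, in 31 of 36 animals (log2 difference 0.58, adjusted p = 8.87e-05, permutation test), and the lowest D1 sub-cluster (4) had 75.0 CPM. A glutamate neuron-like sub-cluster of 629 nuclei, number 26 (led by Slc30a3, the vesicular zinc transporter, and Nwd2), reached 282 ± 136 CPM in the 7 animals with at least 20 of its nuclei, against 23.8 CPM in the glutamate class as a whole, and 20.2% of its nuclei came from 1 animal.

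**Figure D2:**
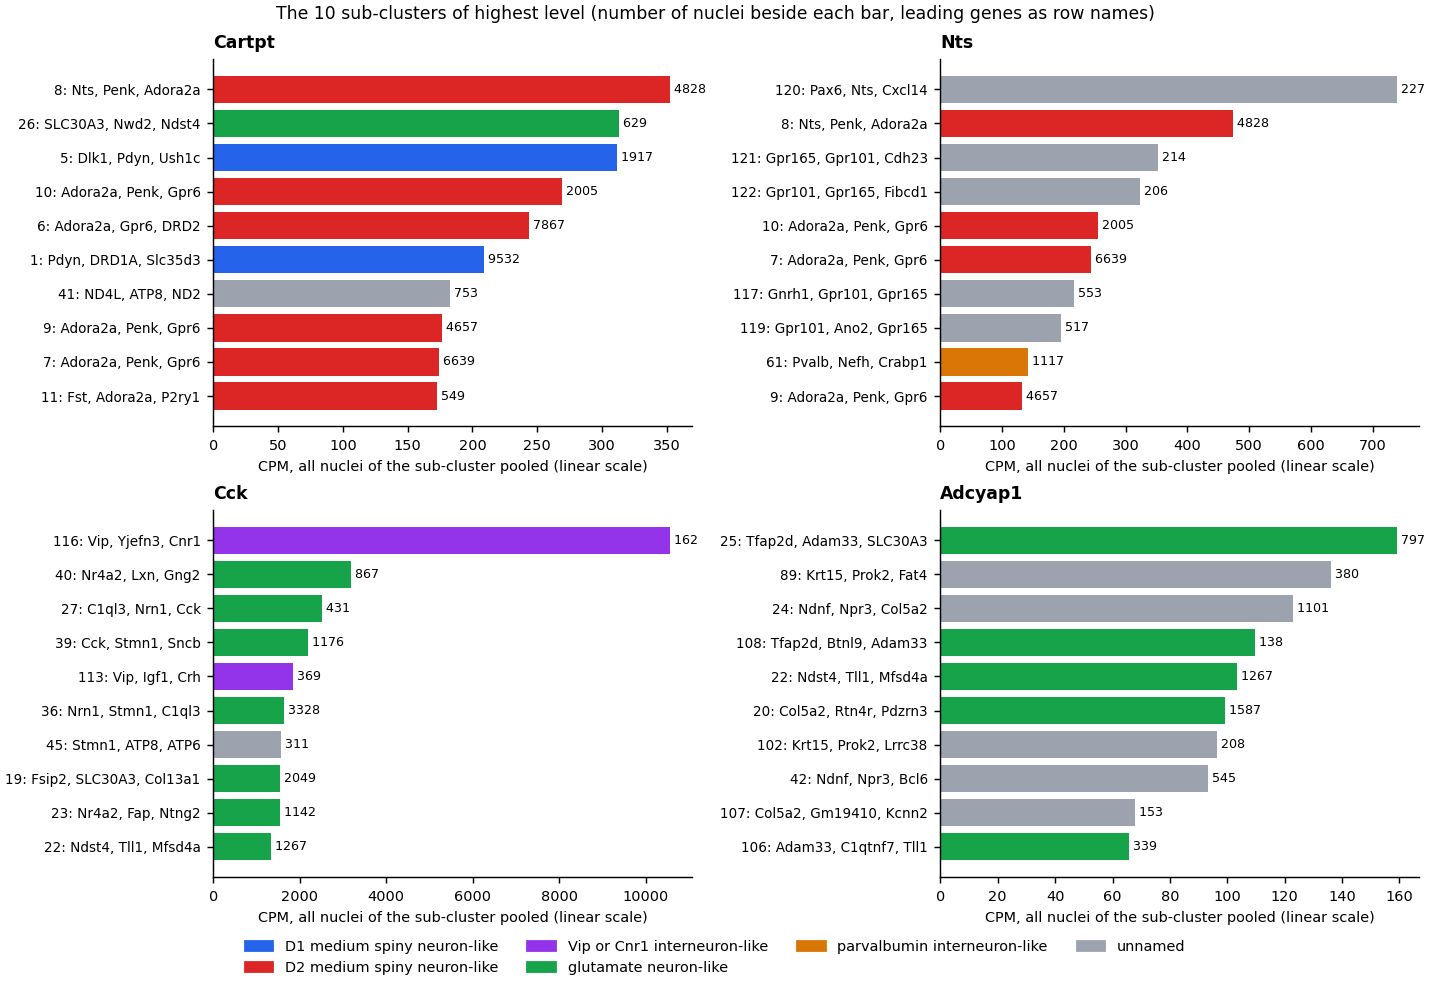
The 10 sub-clusters of highest level for each gene, as CPM over all their nuclei pooled, on a linear axis that starts at 0. Colours give the class, the number beside a bar is its nuclei, and row names give the sub-cluster's number and leading genes. Cartpt bars are mostly D2 and D1, Nts bars are mostly D2 and unnamed GABA sub-clusters, Cck bars are Vip and glutamate, and Adcyap1 bars are glutamate and unnamed.

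Nts was more narrowly placed than Cartpt within the spiny neurons. D2 nuclei had 173 ± 60.6 CPM (27.3 in the lowest animal, 171 in the median, 324 in the highest) and held 67.8% of all Nts UMIs. D1 nuclei had 23.6 ± 15.3 CPM and 10.5% of the UMIs. Between them in the order of means stood parvalbumin interneuron-like nuclei with 29.1 CPM but a median animal of 13.1, and D2 exceeded them in 37 of 40 animals (log2 difference 4.14, adjusted p = 0.00013, permutation test). Within animals D1 was above the parvalbumin class in 27 of 40 (adjusted p = 0.022, permutation test), opposite to the order of the means. The highest animal of the parvalbumin class had 224 CPM. The name of this class rests on a marker list that also holds Kit and Pthlh: of its 4 sub-clusters, 61 had 374 CPM of Pvalb, but 110, 111 and 112 had 59.9, 4.37 and 126 CPM, in each of them below Vip (170, 5.83 and 218 CPM), and Crabp1 and Kit were among the leading genes of these 3.

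Within the D2 class Nts, like Cartpt, was at 202 ± 69.5 CPM in the Penk and Adora2a sub-clusters and 20.8 ± 21.2 CPM in the Cpne7 sub-clusters, higher in 40 of 40 animals (log2 difference 3.95, permutation p = 1e-05). The Penk sub-clusters then separated by Nts. Sub-cluster 8 had 475 ± 154 CPM (210 to 766 CPM over 38 animals), sub-clusters 10 and 7 had 249 ± 186 and 229 ± 89.4 CPM, sub-cluster 9 had 154 ± 92.2 CPM, and sub-cluster 6, which was below only 8 and 10 among these for Cartpt, had 29.5 ± 20.6 CPM. Sub-cluster 8 exceeded 10 in 32 of 34 animals (log2 difference 1.21), and 9 exceeded 6 in 39 of 39 (log2 difference 2.65, adjusted p = 8.87e-05 for both, permutation test), while 10 and 7 were not told apart (adjusted p = 0.616). Sub-cluster 6 thus had Cartpt at 235 CPM with Nts at 29.5 CPM, and sub-cluster 8 was the highest D2 sub-cluster for both genes.

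UMIs of both peptides were found in few nuclei. After every nucleus was thinned to 500 UMIs, 227 D2 nuclei had a UMI of both Nts and Cartpt, of 1894 with Nts and 2740 with Cartpt. Over the 32 animals with enough Nts nuclei, 11.8% ± 6.8 of the D2 nuclei with Nts had Cartpt against 8.70% ± 2.36 of those without, higher in 20 of 32 animals. At this depth a nucleus without a UMI may still carry the RNA, so the shares do not measure how many nuclei carried both, and they are given with no test. The D2 class also pools the Penk and Adora2a sub-clusters with the Cpne7 sub-clusters, which were low in both Cartpt and Nts (14.7 and 20.8 CPM). The part of this mixing in the 2 shares was not tested.

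Outside the spiny neurons the highest Nts levels were in GABA neurons of sub-clusters that stayed unnamed. In 5 unnamed sub-clusters led by Gpr101, Gpr165 or Zic1 (1717 nuclei, with 446 to 1032 CPM of Gad1, the GABA-synthesizing enzyme), Nts was at 320 ± 197 CPM over 24 animals, from 38.2 to 872 CPM, and they held 8.63% of all Nts UMIs. The highest of these, sub-cluster 120 (227 nuclei from 31 animals, led by Pax6 and Cxcl14), had 505 Nts UMIs or 739 CPM with all its nuclei pooled. Its Gpr101 was at 68.7 CPM, against 170 to 538 CPM in the others of this set. Sub-cluster 25, glutamate neuron-like and led by the transcription factor gene Tfap2d, had 139 ± 52.8 CPM over 15 animals, against 7.13 CPM in the glutamate class. Most of the Nts of the parvalbumin class lay in sub-cluster 61 (1117 nuclei), with 157 UMIs and 129 ± 162 CPM over 24 animals. That sub-cluster had a median of 818 UMIs per nucleus, 0.537 of the median of its animals, and held Sst (490 CPM) and Vip (355 CPM) beside Pvalb (374 CPM).

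In D1 nuclei, Nts and Cartpt were higher where activity-induced genes led a cluster. When clustered more finely (resolution 2), D1 nuclei formed a cluster of 1527 led by the immediate-early genes Npas4, Fosb, Nr4a3 and Arc, which neurons switch on within minutes of strong input. Nts was at 168 ± 163 CPM there and 18.7 ± 11.3 CPM in the other D1 clusters, higher in 25 of 28 animals (log2 difference 2.61, adjusted p = 6e-05 over 6 such tests, permutation test). Cartpt was at 267 ± 185 against 150 ± 55.0 CPM, higher in 23 of 28 animals (log2 difference 0.60, adjusted p = 0.00141). A cluster led by the same kind of genes among the Cpne7 nuclei (618 nuclei) had Nts at 63.4 ± 64.8 against 18.9 ± 17.8 CPM in its neighbours, a difference that did not pass the test (11 of 15 animals, adjusted p = 0.257, exact sign-flip permutation test). Cartpt there was at 21.8 against 15.9 CPM, with a mean within-animal log2 difference of the opposite sign (-0.55, higher in 8 of 15 animals, adjusted p = 0.375, exact sign-flip permutation test). In an eccentric spiny sub-cluster led by Otof, Fosb and Arc (51, 341 nuclei) both genes were at 0 in the 3 animals with enough nuclei, against 15.0 CPM of Cartpt and 1.99 CPM of Nts in its neighbours (exact sign-flip permutation test, adjusted p = 0.375 and 0.5, where the smallest unadjusted p of 3 animals is 0.25). Nuclei of such a cluster share the clustering that set them apart, and the labels give no measure of activity.

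Cck was carried by interneurons and glutamate neurons. In Vip or Cnr1 interneuron-like nuclei, named by markers of interneurons that in cortex often carry cholecystokinin, Cck was at 4863 ± 2981 CPM, from 1489 to 12648 CPM over the 17 animals with at least 20 such nuclei. In glutamate neuron-like nuclei it was at 901 ± 297 CPM (n = 40), with 196 CPM in the lowest animal (male peer 5, which had 23 such nuclei), 905 in the median and 1504 in the highest. Vip or Cnr1 nuclei were higher than glutamate nuclei in 17 of 17 animals (log2 difference 2.15, adjusted p = 0.000208, permutation test). That order depends on the second round of clustering, added after the first had been seen: with the first round alone the class was wider and the difference was -0.46 (adjusted p = 0.309, permutation test). They were few, 769 in all, so they held 7.80% of all Cck UMIs and glutamate nuclei held 69.7%. Most Cck UMIs of the Vip or Cnr1 class came from a small sub-cluster described below. Its sub-clusters were not each compared with glutamate nuclei by a test. Parvalbumin interneuron-like nuclei followed with 240 ± 223 CPM, below glutamate nuclei in 39 of 40 animals (log2 difference 2.62, adjusted p = 0.00013, permutation test).

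Within the glutamate class Cck ranged widely. The highest sub-cluster, number 40 (867 nuclei, led by Nr4a2, Lxn and Cck), had 3232 ± 789 CPM over 16 animals. Sub-cluster 27 (431 nuclei) had 2508 CPM pooled, sub-cluster 39 had a mean of 2251 CPM (1536 to 3234 CPM over 21 animals) and sub-cluster 36 had 1612 ± 315 CPM. The steps from 40 to 39 (11 of 12 animals, exact sign-flip permutation test, adjusted p = 0.00666) and from 39 to 36 (19 of 21 animals, permutation test, adjusted p = 0.000568) passed the test, and those among sub-clusters 36, 23, 19, 22 and 18 (1612 to 1207 CPM) did not. Sub-clusters 40, 39 and 36 came from 1 first-round cluster of 11834 nuclei that had stayed unnamed and had the mitochondrial genes ATP8, ND4L, ATP6, CYTB, ND5 and ND2 among its leading genes beside Stmn1 and Cck. Their nuclei had medians of 1006, 1626 and 825 UMIs, ATP8 was among the 10 leading genes of 39 alone of the 3, and the part of RNA quality in their Cck levels was not tested. At the other end 5 sub-clusters with the genes Rxfp2, Nxph3 or Fezf2 (52 to 56) had means of 37.9 to 80.6 CPM, where mature oligodendrocyte-like nuclei had 88.6 CPM. Among interneurons, sub-cluster 116 (162 nuclei from 37 animals, led by Vip, Yjefn3 and Cnr1) had 6027 Cck UMIs, or 10556 CPM pooled, and sub-cluster 113 (369 nuclei, led by Vip, Igf1 and Crh) had 1844 CPM. Sub-cluster 116 thus held most of the 7628 Cck UMIs of the Vip or Cnr1 class. The level of sub-cluster 113 was below those of glutamate sub-clusters 40, 27 and 39. Cck in the parvalbumin class was split in the same manner as Nts: sub-cluster 61 had 1160 ± 966 CPM and sub-cluster 110 (led by Crabp1 and Kit) 37.3 ± 32.3 CPM, and sub-cluster 61 was higher in 14 of 16 animals (log2 difference 3.97, exact sign-flip permutation test, adjusted p = 0.00267).

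Adcyap1, the scarcest of the 4 in UMIs, was also a glutamate neuron gene. It was at 32.7 ± 14.5 CPM in glutamate nuclei (n = 40), with 0 in the lowest animal (male peer 5), 30.4 in the median and 63.8 in the highest, and these nuclei held 67.7% of its UMIs. Parvalbumin interneuron-like nuclei had 7.64 CPM (median 5.46) and were below glutamate nuclei in 38 of 40 animals (log2 difference 2.75, adjusted p = 0.00013, permutation test). Vip or Cnr1 nuclei followed with 4.41 CPM and a median of 0, and these 2 interneuron classes were not told apart (adjusted p = 0.0961, permutation test). D1 and D2 nuclei had 0.663 and 0.451 CPM. Unnamed nuclei held a further 23.7% of the UMIs.

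The 3 glutamate sub-clusters of highest Adcyap1 were not those of highest Cck. The Tfap2d-led glutamate sub-cluster 25 had 156 ± 68.4 CPM of Adcyap1 over 15 animals and 326 ± 148 CPM of Cck. Sub-cluster 22 (led by Ndst4 and Tll1) had 111 ± 65.2 CPM of Adcyap1 and sub-cluster 20 (led by Col5a2 and Rtn4r, a Nogo receptor gene) 99.5 ± 37.2 CPM, and neighbours among these 3 were not told apart (exact sign-flip permutation test for 25 and 22, adjusted p = 0.277, and permutation test for 22 and 20, adjusted p = 0.828). In the animals where each was compared with sub-cluster 18, Cck was at 1350 CPM in sub-cluster 22 (21 animals) and 714 CPM in sub-cluster 20 (26 animals). The mean Cck of the class was 901 CPM. Of the Cck-rich sub-clusters, 40 had 13.1 ± 15.2 CPM of Adcyap1, but 39 and 36 had 67.3 ± 29.6 and 46.7 ± 34.7 CPM, above the mean of the class. An unnamed sub-cluster, 24 (1101 nuclei, led by Ndnf, Npr3 and Col5a2, with 1540 CPM of the vesicular glutamate transporter Slc17a7), had 125 ± 59.5 CPM over 22 animals and held 15.3% of all Adcyap1 UMIs. A small GABA sub-cluster led by Krt15 and Prok2 (89, 380 nuclei, with 223 CPM of the dopamine receptor Drd3) had 44 UMIs, or 136 CPM pooled. In thinned glutamate nuclei, 2.33% ± 1.24 of those with a Cck UMI had an Adcyap1 UMI and 1.5% ± 0.89 of those without, higher in 29 of 39 animals, again with no test.

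Free RNA in the droplets can give a nucleus UMIs of a gene it does not express. Shares of nuclei with a UMI were therefore set against mature oligodendrocyte-like nuclei after thinning each nucleus to 500 UMIs. Median depths before thinning were 664 UMIs in mature oligodendrocyte-like, 2089 in D1, 1909 in D2 and 2093 in glutamate nuclei. Cartpt was found in 0.664% ± 0.534 of the oligodendrocyte-like nuclei, 8.72% ± 2.30 of D2 and 6.40% ± 2.38 of D1 nuclei, above background in 40 of 40 animals in both (unthinned, 25.9% and 20.5% against 0.866%). Nts was found in 0.362% ± 0.368 of the oligodendrocyte-like, 5.97% ± 1.94 of D2, 1.35% ± 2.00 of parvalbumin and 0.841% ± 0.462 of D1 nuclei (unthinned, 15.0%, 2.27% and 2.79% against 0.610%). Cartpt was also above background in glutamate nuclei (1.09% ± 0.843, higher in 25 of 40 animals), but not at 1000 UMIs (adjusted p = 0.0734, permutation test). Adcyap1 was found in 0.0893% ± 0.179 of the oligodendrocyte-like, 1.67% ± 0.81 of glutamate and 0.458% ± 0.720 of parvalbumin nuclei (unthinned, 5.81% and 1.10% against 0.150%). Each of these classes was above background at 500 UMIs (adjusted p between 5.78e-05 and 0.00416 over 52 tests, permutation tests). At 1000 UMIs, which shallower nuclei do not reach, D1 (adjusted p = 0.0598) and parvalbumin nuclei (adjusted p = 0.415) were no longer above background for Nts.

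Background was highest for Cck. Mature oligodendrocyte-like nuclei had a Cck UMI in 4.08% ± 2.76 of nuclei at 500 UMIs, against 45.4% ± 14.4 of Vip or Cnr1 and 28.2% ± 7.42 of glutamate nuclei (both above in every animal compared). At 1000 UMIs 6 animals had enough Vip or Cnr1 nuclei, which were above background in 6 of 6 (adjusted p = 0.0916, exact sign-flip permutation test). Parvalbumin (6.17%) and microglia-like (5.20%) nuclei were slightly above it (adjusted p = 0.0299 for both, permutation test), and the parvalbumin class was not above it at 1000 UMIs. D1 (1.96%), D2 (1.86%), eccentric spiny (2.03%) and cholinergic interneuron-like (1.83%) nuclei were below it (adjusted p between 5.78e-05 and 0.0125, permutation tests) and their 25.7 to 43.9 CPM of Cck are not read here as expression. D1 nuclei were not called at 1000 UMIs (4.08% against 5.61%, adjusted p = 0.0876) and, unthinned at their greater depth, were above it (8.19% against 5.78%, adjusted p = 0.000153, permutation tests). Free RNA need not be the same part of the UMIs in classes of unlike depth. A share below background thus does not show that Cck was absent. The Cck level of mature oligodendrocyte-like nuclei moved with the animal's share of glutamate nuclei (Pearson r = 0.64, Spearman rho = 0.57, n = 40, adjusted permutation p = 0.00012 and 0.00068, 4 relations added after the shares had been seen). It was 0.47 to 0.72 within the 4 groups and 0.47 without the 2 animals of extreme share. For Cck in D2 nuclei r was 0.63 (0.34 to 0.79 within the groups, 0.48 without those 2 animals) and in D1 nuclei 0.48 (0.19 to 0.73 within the groups, 0.35 without them). The fourth relation, of Nts in D2 nuclei to the percent of D2 nuclei in sub-clusters led by Nts (33.8% to 79.0%), had r = 0.04 and rho = 0.29 (adjusted permutation p = 0.799 and 0.0717). Its r ran from -0.61 in male mate to 0.68 in female peer animals and was 0.42 without female mate 11 and male mate 2 (adjusted permutation p = 0.0114). Those sub-clusters were picked by their Nts in these same nuclei, so a positive relation was partly built in. The p-values of this relation are therefore no support for one. The part of free RNA in the Cck values was not tested.

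**Figure D3:**
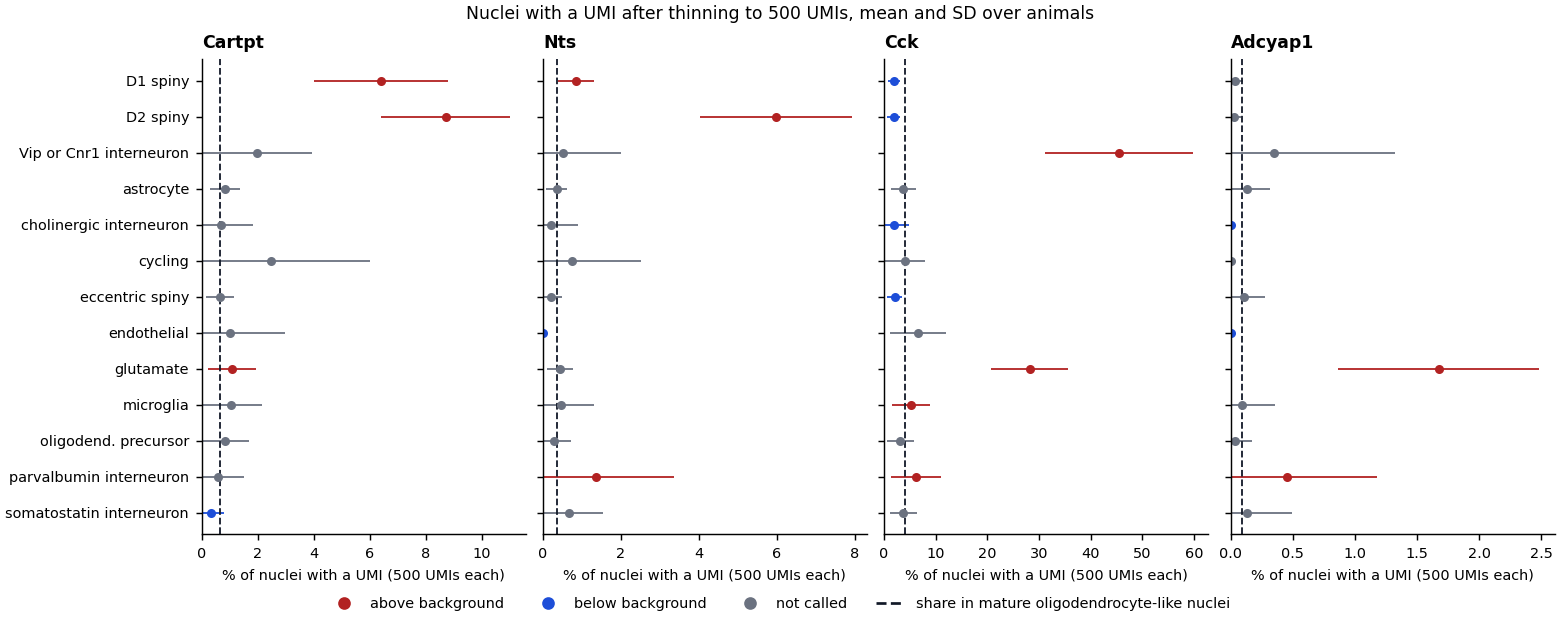
Percent of nuclei with a UMI of each gene after thinning to 500 UMIs, by class, as the mean and SD over animals. The dashed line is the share in mature oligodendrocyte-like nuclei. Red classes are above it, blue below and grey not called. D2 and D1 stand out for Cartpt (8.72% and 6.40%), D2 for Nts (5.97%), and Vip or Cnr1 and glutamate nuclei for Cck (45.4% and 28.2%).

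The genes whose pattern over the 20 coarse clusters was most like each peptide were, for Cartpt, Fst (r = 0.89), Tns4 (0.88), Wfs1 (0.84), Npffr2 (0.82) and Rit2 (0.82), where r is Pearson's correlation of log2(mean CPM + 1). For Nts they were Drd2 (0.75), Pde1c (0.74), Calcr (0.73), Tnnt2 (0.71) and Fst (0.69). For Cck they were Ostn (0.91), Slc30a3 (0.87), Rasgef1c (0.87), Prdm8 (0.86) and Adra1d (0.85), and for Adcyap1 Lnp1 (0.87), Slc30a3 (0.85), Tafa1 (0.84), Tfap2d (0.84) and Rtn4rl2 (0.83). Of the 5 genes, 3 were also among the 5 most alike over 35 finer clusters for Cartpt, Cck and Adcyap1, and 1 for Nts. Over 122 sub-clusters the likeness was lower: r of the named genes was 0.52 to 0.71 for Cartpt, 0.39 to 0.50 for Nts, 0.47 to 0.74 for Cck and 0.52 to 0.74 for Adcyap1, and 1, 1, 1 and 2 of the 5 were among the 5 most alike. The correlations are descriptions over clusters that share libraries and depth. Fst encodes follistatin, Drd2 the dopamine D2 receptor and Calcr the calcitonin receptor.

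The level over all nuclei of an animal adds up its classes, and in such sums fewer cells of a type and less RNA per cell cannot be told apart. Glutamate nuclei held most UMIs of Cck and Adcyap1, and spiny nuclei most of Nts and Cartpt. The directions of the relations below were thus partly built in, and their p-values are no separate support. Over the 40 animals, Nts fell with the share of glutamate nuclei (r = -0.69, rho = -0.62, adjusted permutation p = 4e-05 over 8 relations) and rose with that of spiny nuclei (r = 0.60, rho = 0.63). Cck rose with the glutamate share (r = 0.70, rho = 0.81) and fell with the spiny share (r = -0.59, rho = -0.71), and so did Adcyap1 (r = 0.65, rho = 0.68, and r = -0.51, rho = -0.49, adjusted permutation p between 2.67e-05 and 0.00215 over r and rho of these genes). Within the 4 groups r with the glutamate share ran from -0.88 to -0.46 for Nts, 0.60 to 0.95 for Cck and 0.33 to 0.93 for Adcyap1, and without male mate 2 and male peer 5 it was -0.59, 0.79 and 0.69. With the spiny share, r within the groups ran from 0.53 to 0.81 for Nts, -0.71 to -0.39 for Cck and -0.73 to -0.33 for Adcyap1. Cartpt was less tied to the makeup: r was -0.36 with the glutamate share (rho = -0.32) and 0.36 with the spiny share (rho = 0.34, adjusted permutation p = 0.0237 for both r). Within the groups these ran from -0.64 to -0.05 and from 0.28 to 0.63. Without male mate 2 and male peer 5, the relation to the glutamate share kept its direction but did not pass (r = -0.27, adjusted permutation p = 0.109, rho = -0.28). That to the spiny share then had r = 0.31 (adjusted permutation p = 0.0636). Without the 2 animals farthest from the median spiny share, male peer 8 and female mate 8, r with the spiny share was 0.39 (adjusted permutation p = 0.0181).

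**Figure D4:**
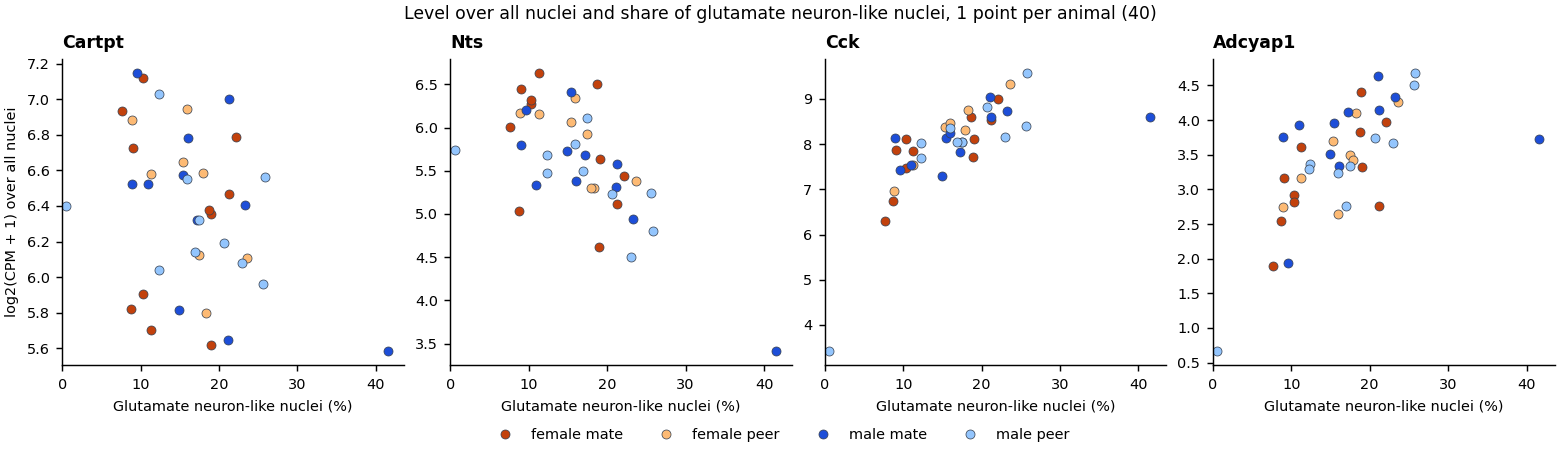
Level of each gene over all nuclei, as log2(CPM + 1), against the percent of the animal's nuclei that were glutamate neuron-like, 1 point per animal, coloured by group. Cck and Adcyap1 rise and Nts falls from left to right, and the lone points at 0.531% (male peer 5) and 41.5% (male mate 2) are the animals left out in the second value of r.

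Levels by pairing type were compared with the animal as the replicate, and mate and peer groups overlapped for every gene. The fit held no term for animals that had lived together, which the labels do not name. Any partners among the animals thus entered as independent, and the SEs, intervals and p-values below do not allow for likeness between them. Over all nuclei, Cartpt was at 85.2 ± 30.3 CPM in female mate (lowest 48.1, median 82.0, highest 138), 89.9 ± 24.1 in female peer (54.6, 94.8, 122), 87.9 ± 30.3 in male mate (46.9, 91.0, 141) and 81.2 ± 20.4 CPM in male peer animals (61.2, 75.6, 130). Nts was at 61.1 ± 26.3 CPM in female mate (23.6, 63.1, 98.1), 58.0 ± 16.5 in female peer (38.4, 62.9, 79.9), 47.1 ± 20.0 in male mate (9.62, 46.7, 84.1) and 43.6 ± 13.8 in male peer animals (21.6, 43.8, 68.2). Both genes had mate and peer means within 1 SD of each other in each sex. Cck was at 259 ± 127 CPM in female mate (78.0, 234, 513), 332 ± 159 in female peer (124, 326, 645), 302 ± 118 in male mate (157, 279, 530) and 316 ± 192 in male peer animals (9.67, 275, 760). Adcyap1 was at 9.30 ± 5.13 CPM in female mate (2.74, 7.98, 20.2), 10.7 ± 4.64 in female peer (5.28, 9.99, 18.1), 13.8 ± 5.49 in male mate (2.84, 14.3, 23.8) and 11.2 ± 7.12 in male peer animals (0.582, 9.21, 24.6). The lowest Cck and Adcyap1 were in male peer 5 and the lowest Nts in male mate 2, the animals with the least and the most glutamate nuclei.

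Averaged over the sexes, the mate minus peer difference over all nuclei was 0.02 on the log2 scale for Cartpt (SE 0.14, 95% interval -0.26 to 0.30), 0.09 for Nts (SE 0.18, -0.27 to 0.46), -0.21 for Cck (SE 0.25, -0.72 to 0.30, with values of -0.29 to -0.04 over 6 alternatives) and 0.05 for Adcyap1 (SE 0.25, -0.45 to 0.55), which turned to -0.02 without male peer 5. By edgeR's quasi-likelihood test with Benjamini-Hochberg adjustment, 0 of the 4 passed (adjusted p between 0.832 and 0.981), as did 0 of all 13699 genes tested (0%), with 952 genes at an unadjusted p under 0.05 and 0 called by DESeq2. The intervals were widest for Cck and Adcyap1, and a p above the threshold does not show like levels. Spiny nuclei made up 46.1% ± 9.47 of the nuclei in female mate and 36.2% ± 10.9 in female peer animals (42.5% ± 9.17 and 42.9% ± 12.1 in males), and glutamate nuclei 14.3% ± 5.62 and 16.1% ± 4.50 (18.2% ± 9.07 and 17.1% ± 7.59 in males). The part of this makeup in the differences over all nuclei was not tested. In females alone (0 of 13699 genes, 0%, 1037 at an unadjusted p under 0.05, 0 by DESeq2) and in males alone (0%, 203 at an unadjusted p under 0.05, 0 by DESeq2) edgeR again called none of the 4, and the differences were -0.35 to 0.09 in females and -0.08 to 0.29 in males. The test of a pairing difference that differs between the sexes did not pass for any of the 4 (interaction, edgeR adjusted p of 1.0 each, 0% of genes called, 272 at an unadjusted p under 0.05, 0 by DESeq2), with intervals as wide as -1.47 to 0.51 for Adcyap1.

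The female minus male difference of Nts over all nuclei was 0.39 on the log2 scale (SE 0.18, 95% interval 0.03 to 0.75), which did not pass once adjusted (unadjusted p = 0.036, adjusted p = 0.617, edgeR), where 3 of 13699 genes passed (0.0219%, 4 by DESeq2, 1067 genes at an unadjusted p under 0.05). For Cartpt (0.05), Cck (-0.06) and Adcyap1 (-0.32) the sex difference did not pass either. In D2 nuclei Nts differed by 0.28 between females and males (SE 0.16, adjusted p = 0.885, edgeR).

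Within classes the members again did not pass. Levels within a class can still move with its sub-clusters and with the animal's other nuclei, as given above for Cck. Cartpt in D2 nuclei was at 177 ± 63.6 CPM in female mate (92.6, 161, 278), 232 ± 63.1 in female peer (151, 242, 337), 199 ± 61.4 in male mate (106, 195, 285) and 209 ± 60.9 in male peer animals (131, 205, 329). The mate minus peer difference of Cartpt was -0.23 (SE 0.14, 95% interval -0.50 to 0.05, adjusted p = 0.92, edgeR), from -0.40 in females (95% interval -0.80 to 0.00, unadjusted p = 0.0504, adjusted p = 0.944) and -0.06 in males (unadjusted p = 0.754, adjusted p of 1.0), with 0 of 10524 genes of the class called (0%, 508 at an unadjusted p under 0.05, 0 by DESeq2). Nts in D2 nuclei was at 190 ± 64.2 CPM in female mate (63.3, 205, 260), 191 ± 68.2 in female peer (96.7, 186, 324), 151 ± 63.9 in male mate (27.3, 158, 264) and 163 ± 43.2 in male peer animals (111, 160, 226), a difference of -0.05 (SE 0.16, adjusted p = 0.997). In D1 nuclei, where 0 of 10775 genes were called (0%, 504 at an unadjusted p under 0.05, 0 by DESeq2), Cartpt differed by 0.04 (SE 0.16) and Nts by 0.45 (SE 0.25, 95% interval -0.04 to 0.95, unadjusted p = 0.0721, adjusted p = 0.939, edgeR). Nts in D1 nuclei was at 28.3 and 22.3 CPM in female mate and peer animals and 25.6 and 17.4 CPM in male mate and peer animals. The differences of Nts in D1 and in D2 nuclei were not compared by a test.

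Cck in glutamate nuclei was at 915 ± 332 CPM in female mate (482, 977, 1504), 931 ± 277 in female peer (499, 894, 1339), 869 ± 255 in male mate (484, 890, 1465) and 899 ± 355 in male peer animals (196, 962, 1473). The pairing difference was -0.07 (SE 0.15, 95% interval -0.38 to 0.24, adjusted p = 0.993, edgeR), with 0 of 11013 genes called (0%, 512 at an unadjusted p under 0.05, 0 by DESeq2). Adcyap1 in glutamate nuclei was at 32.6 ± 15.0 CPM in female mate (11.2, 31.0, 57.3), 30.6 ± 10.1 in female peer (12.7, 30.4, 44.4), 39.7 ± 16.9 in male mate (16.5, 41.8, 63.8) and 26.7 ± 12.8 in male peer animals (0, 26.0, 44.0), a difference of 0.25 (SE 0.18, 95% interval -0.11 to 0.61, adjusted p = 0.963, edgeR). The lowest Cck was again in male peer 5, and the group means of Cck lay within 1 SD of each other. In parvalbumin interneuron-like nuclei the mate minus peer difference of Cck was -0.67 (SE 0.34, 95% interval -1.35 to 0.00, unadjusted p = 0.0514, adjusted p = 1.0, edgeR, and -0.82 to -0.30 over 8 alternatives), where 0 of 5621 genes were called (0%, 266 at an unadjusted p under 0.05, 0 by DESeq2). Cck there was at 1145 CPM in sub-cluster 61 and 40.5 CPM in sub-cluster 110 (16 animals with enough nuclei of both). Sub-cluster 61 also held Sst and Vip, as given above. The part of this mixing in the difference was not tested.

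**Figure D5:**
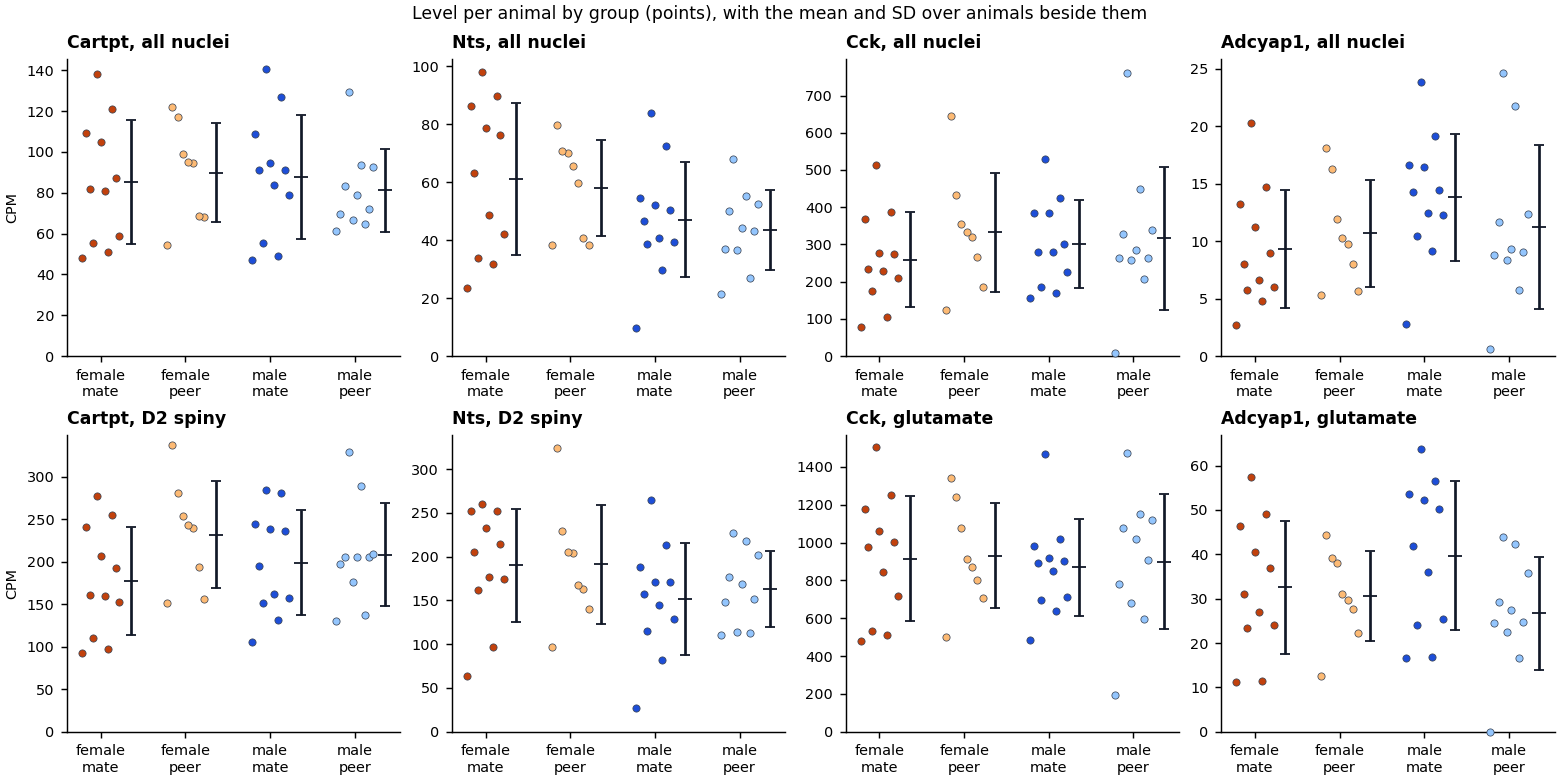
Level per animal by sex and pairing type: over all nuclei (top row) and in the class of highest abundance among the fitted ones (bottom row), in CPM on axes that start at 0, with the mean and SD beside the points. Mate and peer points overlap in all 8 panels.

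Cck in Vip or Cnr1 nuclei was at 4471 ± 2722 CPM in 6 female mate, 7207 ± 645 in 2 female peer, 4901 ± 4463 in 5 male mate and 4230 ± 1958 CPM in 4 male peer animals, too few per group for the fit. Nts in parvalbumin interneuron-like nuclei was at 16.1 ± 26.0 CPM in female mate, 22.5 ± 37.5 in female peer, 63.5 ± 66.3 in male mate and 10.9 ± 17.8 CPM in male peer animals, and it did not pass the filter on low counts. Fitted without that filter, Nts there differed by 2.08 between male mate and male peer animals (SE 0.48, unadjusted p = 2.6e-05, adjusted p = 0.195, edgeR), by -0.22 in females (adjusted p of 1.0) and by 0.93 over the sexes (adjusted p = 0.952), and the test of a difference between the sexes gave an unadjusted p of 0.00207 and an adjusted p of 1.0, so none passed. The male mate mean there rested on few UMIs, 19 in the highest animal (224 CPM), and the median was 35.7 CPM. Most Nts of this class lay in sub-cluster 61, which also held Sst and Vip, as described above. In the sub-clusters the groups overlapped too. Nts in D2 sub-cluster 8 had means of 441 to 502 CPM over the 4 groups with SDs of 155 to 166. Cartpt in D1 sub-cluster 5 was at 230 ± 97.2 CPM in 11 female mate animals against 355 ± 83.9 in 6 female peer, 334 ± 107 in 10 male mate and 332 ± 163 CPM in 9 male peer animals, which was not tested.

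The receptors of these peptides spread over glia and neurons. Of 8 receptor genes, Ntsr2 was highest in astrocyte-like nuclei (1727 ± 508 CPM, n = 40), Adcyap1r1 in oligodendrocyte precursor-like nuclei (672 ± 165 CPM, n = 39) and Cckbr in glutamate nuclei (303 ± 58.1 CPM, n = 40), the class that also held most Cck. Of 15 genes for peptide processing and dense-core vesicles, Cpe (carboxypeptidase E, which trims peptide precursors) was highest in astrocyte-like nuclei (4167 ± 845 CPM), and the granins Scg2 (2213 ± 742 CPM) and Scg5 (1592 ± 412 CPM, n = 17) in Vip or Cnr1 nuclei, where Cck peaked. Of 12 other peptide genes, 11 of which were matched in the files, Vip was at 11219 ± 4873 CPM in Vip or Cnr1 nuclei, Sst at 8887 ± 3747 in somatostatin interneuron-like and Penk at 5813 ± 1286 CPM in D2 nuclei. With pairing, 0 of 6 receptor, 0 of 15 processing and 0 of 11 other peptide genes tested over all nuclei passed in either direction (edgeR, lowest adjusted p = 0.74), with median log2 differences of 0.05, -0.05 and 0.03 against -0.01 over all genes. Those lists were also not called in any class fitted.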

How the data were processed

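Each of the 40 single-nucleus libraries, 1 per animal, was deposited as a matrix of UMI counts that were not normalized, made by the authors with Cell Ranger 3.1.0 per the submitters' processing notes. The genome build and annotation are not given in the sources used here. Nuclei with at least 500 UMIs and at most 5% mitochondrial counts were kept. Doublets were scored against simulated ones within each library, and 7608 barcodes (4.09%) were removed at 0.8% per 1000 barcodes. Nuclei were clustered by the Leiden method (python-igraph 0.11.9) on 2000 variable genes and 30 principal components at resolution 1, without the 4 peptide genes. Large clusters were split once more, a step added after the first clusters had been seen. Clusters were named from 119 marker genes, needing at least 3 markers. A cluster with 3 markers also stayed unnamed in other cases. These were strong markers or leading genes of another class, low depth or weak scores with no leading marker, and under 100 nuclei.

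Counts were summed per animal and class, leaving out animals with under 20 nuclei of it. Mate and peer were compared with edgeR 4.0.16 (TMM, filter on low counts, quasi-likelihood) over all genes, in classes with at least 6 animals per group, and DESeq2 1.42.0 was an alternative. An adjusted p under 0.05 was called. Classes within animals were compared by two-sided sign-flip permutation of log2(CPM + 1), exact up to 16 animals and with 100000 resamples above. The scripts were tested on simulated data. For each peptide, the 5 genes of most similar pattern among those reaching 10 CPM were named, with the 3 genes of highest class level of each list. The members and lists were chosen with earlier results of these data known. The labels describe the samples as separate animals, and each p-value treats the animals as independent units. The fits of mate against peer held no term for animals that had lived together.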

Additional observations from a re-analysis of the deposited data

Results flagged for a closer look

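Among 34 groups of 4 to 10 animals, 6 held an animal far from the nearest other relative to the range of its group. The full female mate and male mate groups, of 11 animals each, were too large for this check and were not examined. Mate animals were examined only in cycling-like nuclei (Cartpt) and in Vip or Cnr1 interneuron-like nuclei (Cck and Adcyap1). Chance gives about 1 in 20 for normally distributed values. That rate need not hold where most animals have few or no UMIs, as in 4 of the 6 below. Cartpt over all nuclei was at 130 CPM in male peer 3, with the next male peer animal at 93.5 CPM. Cck in Vip or Cnr1 interneuron-like nuclei was at 12648 CPM in male mate 6, which had 21 such nuclei, with the next at 4070 CPM. Nts in parvalbumin interneuron-like nuclei was at 110 CPM in female peer 6 (14 UMIs, next 38.6 CPM) and at 58.2 CPM in male peer 10 (9 UMIs, next 17.4 CPM). Adcyap1 in the same class was at 26.6 CPM in female peer 3, from 2 UMIs, with the next at 8.94 CPM. Adcyap1 in Vip or Cnr1 nuclei was at 16.7 CPM in male mate 11, from 1 UMI, with the other male mate animals at 0.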

How the results depend on the processing

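The labels number the 40 samples in 1 run and do not say which animals were partners. Consecutive numbers hold 1 female and 1 male among the mate animals and 2 animals of 1 sex among peers, so they can block the sex contrast of mates. Over all nuclei, deviations of the 2 mate animals of consecutive numbers correlated over genes at -0.08 to 0.21, over 0.1 in 6 of 11 pairs of numbers. In D2 nuclei they were at -0.08 to 0.29, over 0.1 in 2 of 11, and in glutamate nuclei at -0.23 to 0.22, over 0.1 in 4 of 11. Animals of other numbers were not correlated, so whether such pairs were partners stays unknown. With a replicate block of these numbers, added after seeing the data, the female minus male difference over all nuclei was 0.38 for Nts (0.39 without), -0.05 for Cartpt, -0.29 for Cck and -0.61 for Adcyap1 (-0.56 without), none called by edgeR in either fit (2 of 13145 genes called in each), and Nts in glutamate nuclei turned from 0.11 to -0.0095. The pairing differences stayed uncalled under every alternative run. With blocks of 10 label numbers as a covariate, the direction turned for Nts in D2 nuclei (0.043), for Cck in glutamate nuclei (0.092) and for Cck over all nuclei in males (0.10). Of the 11 differences within each sex, those blocks turned 4 in males (from 6 higher and 5 lower to 10 and 1; besides Cck over all nuclei, Cartpt in D2 nuclei to 0.05, Nts in D2 nuclei to 0.01 and Cck in glutamate nuclei to 0.09) and 2 in females (from 3 and 8 to 5 and 6; Nts in D2 nuclei to 0.08 and Cck in glutamate nuclei to 0.09). Both female values, -0.01 and -0.04 in the fit used here, also turned at resolution 2 (0.02 and 0.01) and without the second split (0.02 and 0.01), and that of Nts without the filter on low counts (0.01) and without male peer 5 (0.0013). The interaction of Nts over all nuclei turned to -0.0035 with DESeq2, -0.10 without male mate 2, -0.031 without male peer 5 and -0.057 with those blocks. With DESeq2, without male peer 5 and with those blocks, the 11 interactions stayed at 3 higher and 8 lower. Another of them, not named here, thus turned to higher in each of these settings. Leaving out male peer 5, chosen after seeing the data, turned the pairing difference of Adcyap1 over all nuclei to -0.024. Without the second split of the clusters, also chosen then, Vip or Cnr1 minus glutamate nuclei turned to -0.46 for Cck. At 1000 UMIs the parvalbumin share of Cck turned to -0.93 percentage points against background. Classes above background numbered 8 for Cartpt unthinned, 1 (at 1000 UMIs) and 5 (unthinned) for Nts, and 1 (at 1000 UMIs) and 2 (against microglia-like nuclei) for Cck. The relation of Cartpt to the glutamate share fell to r = -0.27 without its 2 extreme animals, and that of Cartpt to the spiny share to 0.31 without male mate 2 and male peer 5. The cause of these changes was not tested. At 1000 UMIs fewer nuclei and animals entered. Intervals and zeros cover counting error and the spread of animals, and Adcyap1 had the fewest UMIs (3584).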
